A study of Mus musculus with 16 samples.

Results

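The interleukin-1 family and its receptors were followed in mouse macrophages grown from stem cells, as 9 genes chosen by name: the ligand genes Il1a, Il1b, Il1f6 (now Il36a) and Il18, the inhibitor genes Il1rn and Il18bp, and the receptor genes Il1r2, Il1rap and Il18rap. They are carried by 10 of the 39429 probes on the array, since Il1rap has 2 probes, and are 9 of the 20659 named genes. The arrays form 4 groups of 4 replicates, lettered a to d: LPS (lipopolysaccharide, a bacterial cell wall component that activates macrophages through Toll-like receptor 4) at 10 ng/mL for 8 h, heme-albumin at 50 µM for 8 h, heme-albumin at 200 µM for 8 h, and untreated control cells at 0 h. Heme, the iron-carrying group that hemoglobin holds, was given bound to albumin, and the title of the series asks whether it triggers inflammation. Each array set 1 sample in red (Cy5) against untreated RNA in green (Cy3), and the control arrays carried untreated RNA in both colours. The labels give no strain, sex or age and do not say which stem cells the macrophages came from. The treated cells had 8 h more in culture than the control cells, so treatment and time cannot be told apart. The design text calls the replicates biological and independent, and by their titles, replicates that share a letter also share a tag across the groups.

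Interleukin-1 alpha and beta signal through interleukin-1 receptor type 1 together with the accessory protein that Il1rap encodes, and from there through MyD88 and IRAK kinases to NF-kB. The signal is held back at several points: the receptor antagonist encoded by Il1rn occupies the receptor without activating it, the decoy receptor encoded by Il1r2 binds the ligand without signalling, and the binding protein encoded by Il18bp traps interleukin-18. Interleukin-1 beta and interleukin-18 are made as precursors that caspase-1 cleaves within an inflammasome, so the level of their mRNA, which is what the arrays measured, is a step ahead of the active cytokine. Macrophages are a main source of interleukin-1.

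Between 49.9 and 59.4 percent of probes were well above background in red on each array, no spot was saturated, and 4 arrays a group limit the precision. Macrophage markers were checked first, and 11 of the 12 on the list have a named probe. All 11 were well above background on all 16 arrays, among them Csf1r, Adgre1 and Itgam. Their levels were not all the same between groups. By the limma call defined below, 4 were higher and 1 lower after LPS, where 14 and 16.7 percent of all genes were. At 200 µM heme-albumin 0 were higher and 2 lower, where 2.02 and 0.972 percent of all genes were. The stem cell markers Pou5f1, Sox2 and Zfp42 (3 of 5 probed), the B cell markers Cd79a and Ms4a1 (2 of 4) and the T and NK cell markers Cd3g and Klrb1c (2 of 7) were above background on no array, while Nanog, Cd79b and Cd3e of those lists were above it on all 16. The T and NK cell list summed to 509.7 to 762.3 in red on LPS arrays, 137.3 to 290.1 at 50 µM, 107.2 to 310.4 at 200 µM and 131.5 to 254.8 on control arrays, and its marker Klrk1 was above background on all LPS arrays and on no other. Of the neutrophil list, 5 of 9 probed markers (S100a8, S100a9, Elane, Camp and Mmp8) were above background on all arrays, and their list's summed red signal was 8527 to 16680 on LPS arrays, 6130 to 7992 at 50 µM, 6862 to 9921 at 200 µM and 3802 to 6143 on control arrays. The list of fibroblast and epithelial markers summed to 474.3 to 558.7 on LPS arrays and 77.21 to 110.6 on control arrays, with Col1a1, Pdgfra and Epcam above background on no array of either group and Dcn above background on the LPS arrays alone. The macrophage list itself summed to 368900 to 890500 on LPS arrays and 118000 to 205800 on control arrays. The stem cell list summed to 185.7 to 221.6 and 97.08 to 110.6, and that of mast cells and basophils to 146 to 213.1 and 48.17 to 64.23. The B cell list was lower on LPS arrays (226.1 to 347.1 against 360.2 to 601.8), and the dendritic cell list overlapped. These processed signals are not scaled between arrays. The part of these cell types in the results below was not tested. In these bulk samples, fewer cells of a type and less RNA per cell cannot be told apart.

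After LPS, 6 of the 9 genes were called higher and 0 lower, where a call needs an adjusted p under 0.05 in limma and a change of at least 2-fold. Of all 12759 genes tested, 14 percent were called higher and 16.7 percent lower (30.8 percent in all). At an unadjusted p under 0.05, limma gave 8 of the 9 higher and 0 lower. All 4 ligand genes and both inhibitor genes rose, while none of the 3 receptor genes passed both criteria. Il1a and Il1f6 entered the test through the LPS arrays alone, since neither was well above background on any other array, Il1r2 through the LPS arrays, and Il18rap through the heme-albumin arrays. A gene that is measured in 1 group alone had to differ, so the count of 6 is given as a description. Of the 9, 5 genes were above background on all 16 arrays (Il1b, Il18, Il1rn, Il18bp and Il1rap), and the first 4 of these were called.

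**Figure D1:**
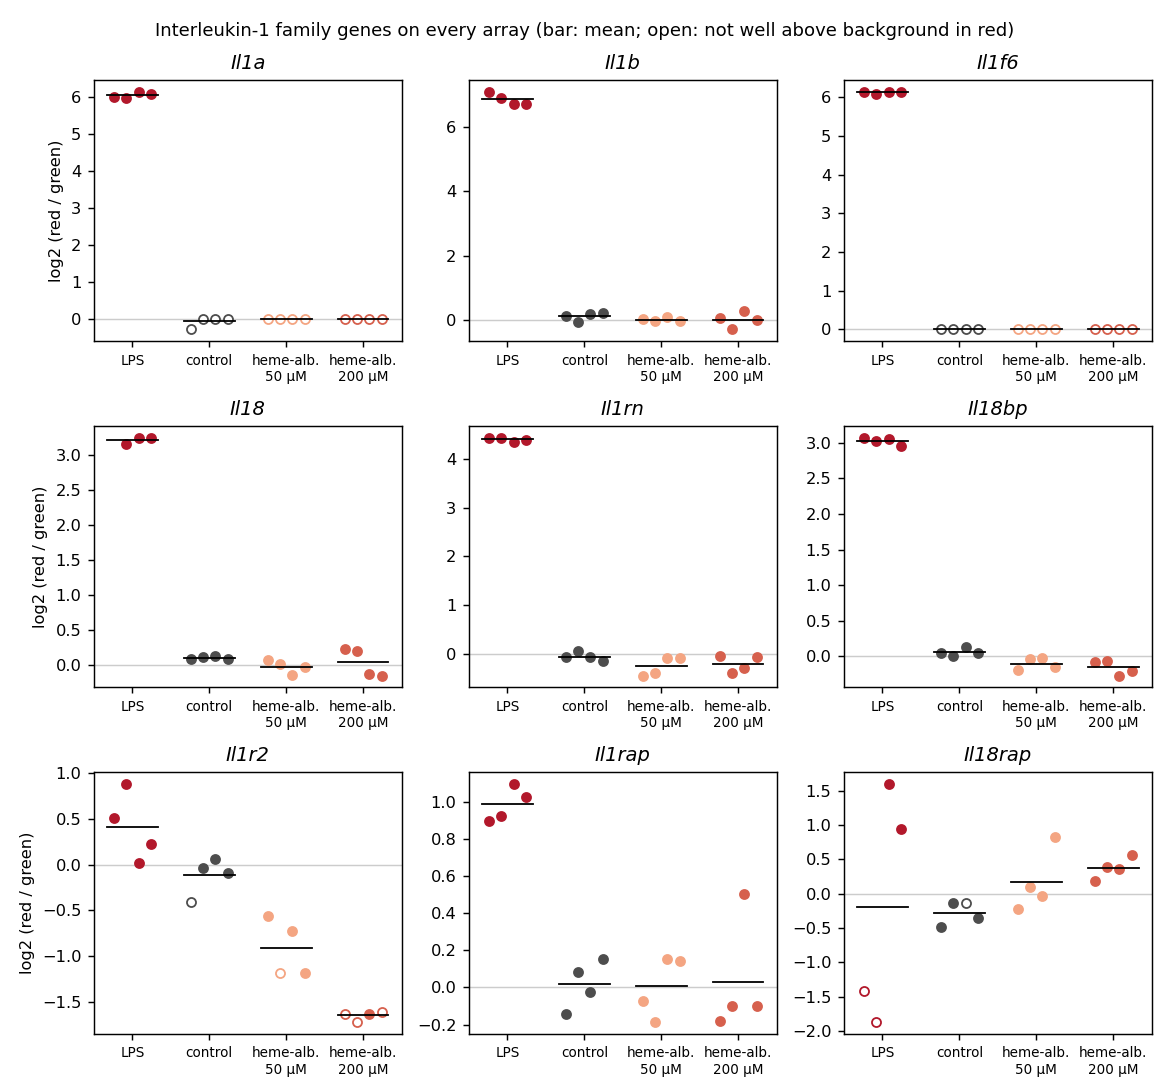
The log2 ratio of red over green on every array is plotted for each of the 9 genes, by group, with the mean as a bar and arrays that were not well above background in red as open circles. Il1a, Il1b and Il1f6 lie near 6 to 7 on LPS arrays and near 0 elsewhere, and Il1r2 is lowest at 200 µM heme-albumin.

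Il1b, which encodes interleukin-1 beta, rose in ratio on every LPS array and, unlike Il1a and Il1f6, was also measured above background on every control array. Its log2 ratios were 7.09, 6.90, 6.72 and 6.71 on LPS arrays a to d, against 0.11, −0.07, 0.19 and 0.22 on control arrays. All 4 LPS values lay far above every control value. The change was 6.74 ± 0.11 on the log2 scale (SE, n = 4 arrays a group), a 107-fold increase of the ratio (adjusted p = 9.9e-16). Within the 2 scan days it was 6.97 (arrays a and b) and 6.51 (arrays c and d). The processed red signal of Il1b was 215000, 262400, 120200 and 130600 on LPS arrays a to d and 97.06, 77.05, 40.34 and 38.69 on control arrays, and in both groups the arrays of the first scan day were the brighter ones. The probe stands in 10 spots per array, which were averaged without the spots marked as outliers. On LPS array a 5 of the 10 were so marked, and the log2 ratios of the 10 ran from 6.15 to 7.32.

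Il1a encodes interleukin-1 alpha, which is active without cleavage by caspase-1. Its log2 ratios on LPS arrays a to d were 5.998, 5.970, 6.155 and 6.085. On the control arrays the gene was not well above background, and the deposited ratio was −0.29 on array a and exactly 0 on the other 3. The fitted change of 6.12 ± 0.06 (adjusted p = 6.5e-18) therefore sets measured values against values fixed at 0, and its small error follows from that. As a bound from the red channel, Il1a was at least 939-fold higher on LPS arrays than the lowest signal of any probe well above background on control arrays. That lowest signal is a minimum over probes, and not a level at which every probe is seen. The measured means behind that bound were 13.75 on LPS arrays and 2.06 on control arrays (log2 normalized red signal). The lowest signal of a probe well above background averaged 3.87 on the control arrays.

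Il1f6, the gene of interleukin-36 alpha, behaved likewise. On LPS arrays a to d its log2 ratios were 6.14, 6.09, 6.13 and 6.15, and on all 12 other arrays the deposited ratio was exactly 0 with both channels dim. Its red signal ran from 5365 to 7259 on LPS arrays and from 1.77 to 4.12 on control arrays. The bound was at least 248-fold higher on LPS arrays (log2 change of the ratio 6.13 ± 0.03, adjusted p = 1.8e-21).

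Il18 encodes interleukin-18, a cytokine that macrophages hold as a precursor and that drives interferon gamma release from lymphocytes. Unlike Il1a and Il1f6 it was well above background in every group. Its log2 ratios were 3.15, 3.24 and 3.24 on LPS arrays b, c and d, against 0.09, 0.12, 0.13 and 0.09 on control arrays a to d. The spot on LPS array a was marked an outlier in the scanner file and left out, so the LPS mean is over 3 arrays. Its log2 ratio was 2.42, below the 3 values kept. The change was 3.104 ± 0.091, or 8.60-fold (adjusted p = 1.1e-12), and the 3 LPS arrays lay apart from all control arrays. The red signal was 25490 to 27330 on LPS arrays and 1248 to 1328 on control arrays.

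The promoters of Il1a and Il1b are shown because these genes lie on the same chromosome and moved together after LPS. Both windows are from RefSeq (build GRCm38.p6), 250 bases before to 50 after the start of the gene, in the direction of transcription: Il1a at chr2:129309923-129310222 and Il1b at chr2:129371090-129371389, both on the minus strand. Capitals mark matches, on either strand, to the motifs searched.
Il1a: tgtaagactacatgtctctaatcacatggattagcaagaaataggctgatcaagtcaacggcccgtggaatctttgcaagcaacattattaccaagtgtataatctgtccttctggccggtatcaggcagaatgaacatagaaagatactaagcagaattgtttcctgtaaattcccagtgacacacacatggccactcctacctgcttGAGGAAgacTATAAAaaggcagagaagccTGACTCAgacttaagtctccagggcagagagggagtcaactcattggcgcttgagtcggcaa
Il1b: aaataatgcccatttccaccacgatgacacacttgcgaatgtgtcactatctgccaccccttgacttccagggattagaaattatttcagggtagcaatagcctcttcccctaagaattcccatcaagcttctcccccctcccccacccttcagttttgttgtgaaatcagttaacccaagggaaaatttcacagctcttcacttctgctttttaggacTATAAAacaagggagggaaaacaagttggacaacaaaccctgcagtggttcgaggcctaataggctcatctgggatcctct
Each window holds TATAAA, the TATA box, beginning 32 bases before the start in Il1a and 31 bases before it in Il1b. That motif is found in 13.6 percent of the 32851 mouse promoter windows. In Il1a it lies between GAGGAA, the core that PU.1 binds, beginning 41 bases before the start, and TGACTCA, a match to the AP-1 motif TGANTCA, beginning 12 bases before it. GAGGAA is in 28.3 percent of all windows and TGANTCA in 7.81 percent. The NF-kB consensus, present in 4.51 percent of windows, was matched in none of the 10 windows that RefSeq gives for 8 of the 9 genes. These are matches of letters, and nothing about a factor's binding was measured.

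Il1rn encodes the receptor antagonist, the natural inhibitor of interleukin-1. It rose after LPS, with log2 ratios of 4.43, 4.43, 4.35 and 4.38 on arrays a to d, against −0.07, 0.06, −0.06 and −0.16 on control arrays. The LPS arrays ran from 4.35 to 4.43, far above the control arrays. The change was 4.45 ± 0.10, or 21.9-fold (adjusted p = 1e-14), and was 4.43 and 4.47 within the 2 scan days. Its red signal reached 53840 to 60590 on LPS arrays and was 184.4 to 210.9 on control arrays.

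Il18bp, the gene of the interleukin-18 binding protein, rose beside Il18. Its log2 ratios were 3.07, 3.03, 3.06 and 2.96 on LPS arrays a to d, against 0.05, 0.01, 0.13 and 0.05 on control arrays. The change was 2.97 ± 0.06, or 7.84-fold (adjusted p = 3.8e-15). The difference between the log2 ratios of Il18 and Il18bp was 0.12, 0.18 and 0.29 on LPS arrays b to d and ran from −0.001 to 0.104 on control arrays. By contrast, the log2 ratio of Il1b exceeded that of Il1rn by 2.46 ± 0.15 (SD, n = 4) on LPS arrays and by 0.17 ± 0.21 on control arrays, and the LPS range of 2.33 to 2.66 lay apart from the control range of −0.13 to 0.37. These are differences between changes, and the levels of different probes were not compared.

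The promoters of the inhibitor genes are shown beside those of the ligands because they rose with them. They are the window of the first Il1rn start in the RefSeq table (chr2:24336610-24336909, plus strand) and that of Il18bp (chr7:102018183-102018482, minus strand), build GRCm38.p6, with matches in capitals.
Il1rn: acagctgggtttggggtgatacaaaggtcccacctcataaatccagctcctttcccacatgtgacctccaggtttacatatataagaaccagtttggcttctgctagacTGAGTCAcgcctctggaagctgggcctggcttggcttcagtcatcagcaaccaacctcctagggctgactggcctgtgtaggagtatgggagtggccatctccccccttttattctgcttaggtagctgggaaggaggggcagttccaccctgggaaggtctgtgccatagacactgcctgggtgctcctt
Il18bp: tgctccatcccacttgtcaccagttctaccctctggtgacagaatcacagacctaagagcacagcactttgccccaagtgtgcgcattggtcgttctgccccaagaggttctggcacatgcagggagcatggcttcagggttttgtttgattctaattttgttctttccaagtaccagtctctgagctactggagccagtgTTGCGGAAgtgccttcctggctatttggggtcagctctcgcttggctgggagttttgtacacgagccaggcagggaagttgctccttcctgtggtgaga
The Il1rn window shown holds TGAGTCA, an AP-1 match beginning 141 bases before the start, and no TATA box. Il18bp has TTGCGGAA, a match to the C/EBP motif TTGCNNAA that is present in 10.8 percent of windows, beginning 49 bases before the start. Neither motif is in the window of Il1b, so the 4 windows shown share no motif of those searched. RefSeq gives 3 windows for Il1rn. The second holds no match, and the third holds only TTTATA, the TATA box on the other strand, beginning at base 15 from the start. Which start of Il1rn was in use was not measured.

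The green channel held untreated RNA on every array, yet for several of these genes its signal differed between the groups. On LPS arrays the processed green signal of Il1b was 1140 to 2190, against 33.3 to 89.7 on control arrays. For Il1a it was 229 to 631 on LPS arrays and 2.21 to 11.3 on control arrays, for Il1f6 76.1 to 107 against 2.28 to 4.47, and for Il1rn 2500 to 2910 against 193 to 235. The median green signal of Il1b before background subtraction and dye normalization was likewise 536 to 1210 on LPS arrays and 108 to 215 on control arrays. Fitted alone after quantile normalization, green rose by 5.32 ± 0.37 for Il1a (adjusted p = 8.6e-07), 3.52 ± 0.36 for Il1b (adjusted p = 3.4e-05), 3.75 ± 0.07 for Il1f6 (adjusted p = 1.9e-13) and 2.44 ± 0.22 for Il1rn (adjusted p = 8.6e-06) on the log2 scale. For Il18 the direction in green differed with the scaling: the processed signal was 2700 to 2920 on LPS arrays and 1170 to 1250 on control arrays, the median signal before background subtraction and dye normalization was 1260 to 1790 and 1550 to 2180, and the quantile-normalized change was −0.06 ± 0.09 (adjusted p = 1). In the same fit Il18bp, at 1.22 ± 0.31, missed the threshold (adjusted p = 0.062).

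**Figure D2:**
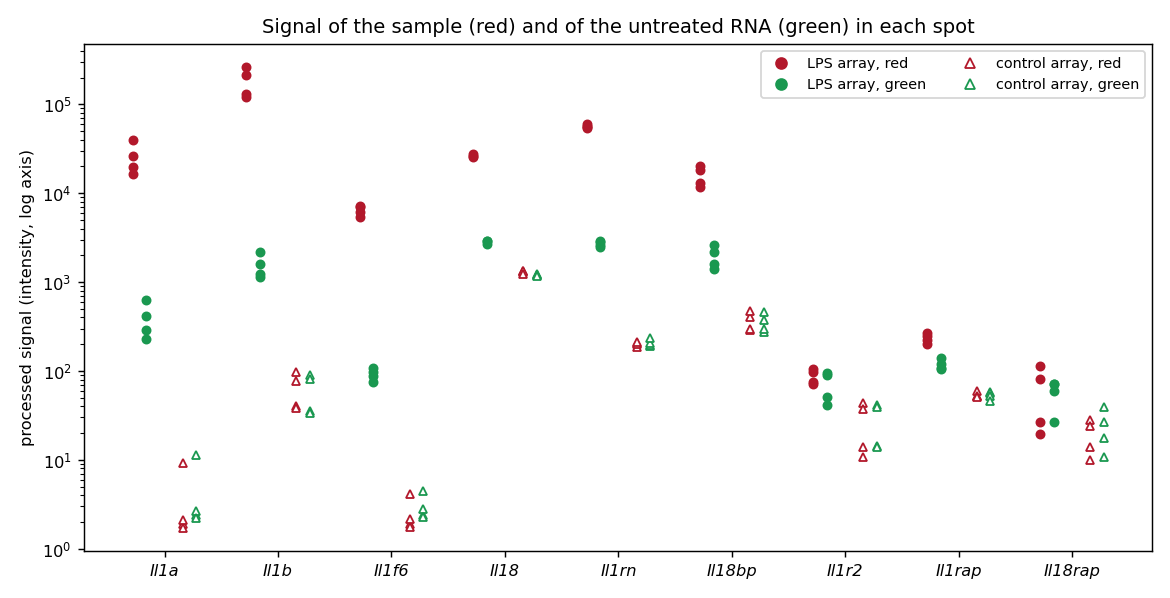
The processed signal of each gene is plotted on a log axis for the red channel (sample) and the green channel (untreated RNA), with LPS arrays as filled circles left of control arrays as open triangles. The green signal of Il1b is 1140 to 2190 on LPS arrays and 33.3 to 89.7 on control arrays, although green held untreated RNA on both.

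A green signal that is higher on LPS arrays makes the ratio smaller than the change in red. Red alone, quantile normalized, rose by 9.77 ± 0.34 for Il1b, or 873-fold, where the ratio gave 107-fold. For Il1rn red rose 95.8-fold where the ratio gave 21.9-fold, and for Il18bp 16.3-fold where the ratio gave 7.84-fold. For Il18 quantile-normalized red gave 7.11-fold and the ratio 8.60-fold, while its processed red signals, given earlier and not scaled between arrays, lay further apart than either. The direction and the call were the same by both measures for all 6 genes. On LPS arrays green was 0.735 to 0.956 percent of red for Il1b and 1.4 to 1.59 percent for Il1a. It was 1.41 to 1.47 percent for Il1f6 and 4.64 to 4.91 percent for Il1rn. For Il18 and Il18bp, whose green was not called higher, it was 10.6 to 11.3 and 11.9 to 12.9 percent. This share is the ratio inverted, so its steadiness only restates that the LPS ratios of a gene were alike. The fold changes of the ratio for the 6 genes are values of the ratio. Which of the 2 measures is nearer to the change in mRNA was not tested.

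Genes outside the family were checked in the same way. Of the 12759 genes tested, 73 were called higher and 27 lower in green on LPS arrays against control arrays, 0.784 percent in all. Among the 376 genes whose ratio rose at least 8-fold after LPS, 52 were called higher in green, and among the 190 whose ratio fell at least 8-fold, 0 were called lower in green. Against the same control arrays, green was called in 2 genes at 200 µM heme-albumin and in 0 at 50 µM. The cause was not tested.

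The receptor genes were dim and moved less after LPS. Il1rap, the accessory chain that the interleukin-1, interleukin-33 and interleukin-36 receptors share, had log2 ratios of 0.90, 0.92, 1.10 and 1.03 on LPS arrays a to d, against −0.14, 0.09, −0.02 and 0.15 on control arrays. The groups did not overlap, and the change of 0.97 ± 0.13, or 1.95-fold, had an adjusted p of 7.7e-06 but lay just under 2-fold. Its other probe gave 0.82 ± 0.22, or 1.77-fold (adjusted p = 0.0029), also without overlap. With the arrays centred on their medians the change of the brighter probe was 1.06 and the gene was called.

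Il1r2, the decoy receptor, is among the dimmest genes of the family here. It was well above background on 4 of 4 LPS arrays and 3 of 4 control arrays, with log2 ratios of 0.51, 0.88, 0.01 and 0.22 on LPS arrays a to d and −0.41, −0.04, 0.06 and −0.09 on control arrays. The groups overlapped, and the change of 0.52 ± 0.18 (adjusted p = 0.014) was under 2-fold. It was 0.92 on the first scan day and 0.13 on the second.

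Il18rap, the accessory chain of the interleukin-18 receptor, gave no usable answer after LPS. On arrays a and b, scanned on the first day, its log2 ratios were −1.42 and −1.86 and the spot was not above background in red, and on arrays c and d, scanned on the second day, they were 1.59 and 0.94 with the spot above background. The control arrays read −0.48, −0.14, −0.14 and −0.36. The change was −1.33 (adjusted p = 9.2e-04) within the first scan day and 1.51 (adjusted p = 0.0057) within the second, so the pooled value of 0.09 ± 0.58 (adjusted p = 0.89) averages opposite readings.

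After heme-albumin, none of the ligand and inhibitor genes was called, and Il1a and Il1f6 were not well above background there or in the control. At 200 µM, 0 of the 9 genes were called higher and 1 lower, against 2.02 and 0.972 percent of all genes (2.99 percent in either direction). At 50 µM, 0 genes were called higher and 0 lower, against 0.29 and 0.0784 percent of all genes (0.368 percent in either direction). Limma without moderation of the variance gave the same counts. At an unadjusted p under 0.05 there were 0 higher and 2 lower at each dose, Il1r2 and Il18bp both times.

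**Figure D3:**
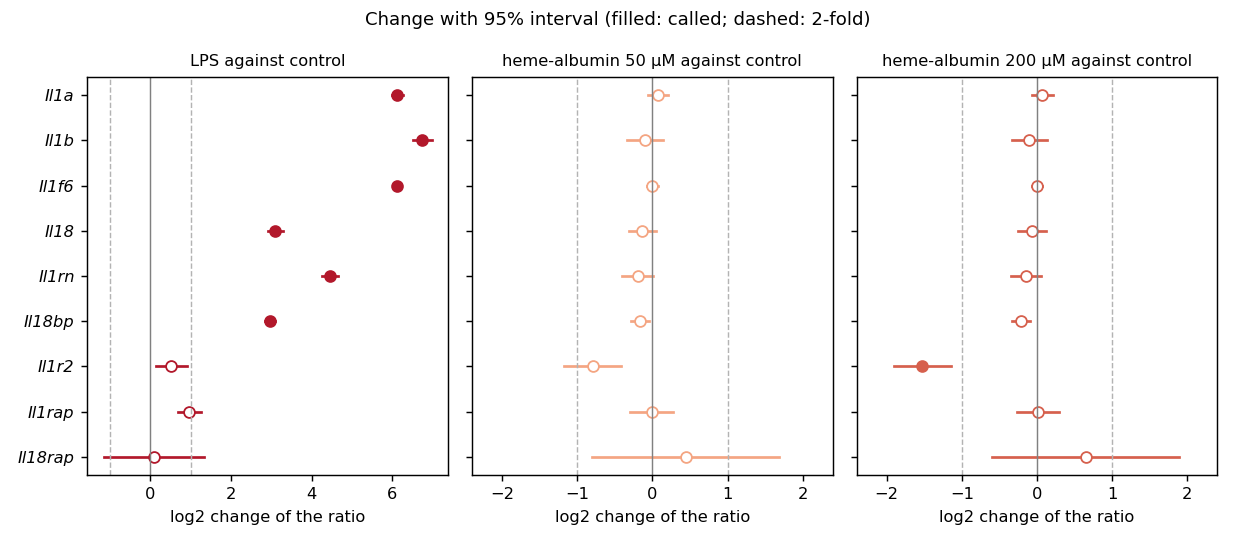
Log2 changes of the ratio against the control are plotted with 95% intervals for LPS and both doses of heme-albumin, called genes as filled points and 2-fold as dashed lines. The 6 ligand and inhibitor genes lie beyond 2-fold after LPS, and Il1r2 alone does so at 200 µM.

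Il1b was measured well on all heme-albumin arrays and stood close to the control. Its log2 ratios were 0.04, −0.04, 0.09 and −0.03 at 50 µM and 0.06, −0.29, 0.27 and 0.01 at 200 µM (arrays a to d), with the control arrays given above between −0.07 and 0.22. The changes were −0.10 at both doses (95% intervals −0.34 to 0.14 at 50 µM and −0.34 to 0.14 at 200 µM, adjusted p = 0.81 and 0.57). An increase of Il1b by more than 0.14 on the log2 scale lies outside both intervals, whereas LPS raised it by 6.74. The green signals on heme-albumin arrays, 38.3 to 126 at 50 µM and 41.8 to 107 at 200 µM, overlapped the control's 33.3 to 89.7, and red alone changed by −0.12 ± 0.34 at 200 µM.

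Il1a and Il1f6 were above background on 0 of 4 arrays at either dose and on 0 of 4 control arrays, so no comparison can be made for them beyond that. Their red signals at 200 µM were 1.85 to 4.77 for Il1a and 1.93 to 5.00 for Il1f6, where control arrays read 1.72 to 9.26 and 1.77 to 4.12.

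Il18 had log2 ratios of 0.07, 0.01, −0.15 and −0.04 at 50 µM and 0.23, 0.20, −0.13 and −0.15 at 200 µM on arrays a to d. At 200 µM arrays a and b lay above all control arrays and c and d below them, and the change was 0.11 on the first scan day and −0.25 on the second (pooled −0.07 ± 0.08, 95% interval −0.25 to 0.11, adjusted p = 0.63). Il1rn read −0.06, −0.39, −0.30 and −0.06 at 200 µM, and its change of −0.15 ± 0.10 had a 95% interval of −0.35 to 0.06 (adjusted p = 0.31). At 50 µM the change of Il1rn was −0.19 ± 0.10 (adjusted p = 0.39).

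Il18bp read slightly below the control at both doses. Its log2 ratios were −0.19, −0.04, −0.03 and −0.15 at 50 µM and −0.08, −0.07, −0.27 and −0.21 at 200 µM, all below the lowest control value of 0.01. The change at 200 µM was −0.22 ± 0.06 (1.16-fold lower, adjusted p = 0.013), which is well under 2-fold, and at 50 µM −0.16 ± 0.06 (adjusted p = 0.18). Within the scan days the change at 200 µM was −0.10 (adjusted p = 0.34) on the first and −0.33 (adjusted p = 0.016) on the second, with normexp background correction its adjusted p was 0.2, and in red alone it was 0.72.

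Il1r2 was the gene called lower at 200 µM heme-albumin. Its log2 ratios were −0.56, −1.18, −0.73 and −1.18 at 50 µM and −1.63, −1.72, −1.63 and −1.61 at 200 µM on arrays a to d, with control arrays between −0.41 and 0.06. All arrays at 200 µM lay below all arrays at 50 µM, and these below all control arrays. At 200 µM the change was −1.53 ± 0.18, or 2.88-fold lower (95% interval −1.91 to −1.15, adjusted p = 1.9e-05), and it was −1.45 and −1.60 within the 2 scan days. At 50 µM it was −0.79 ± 0.18 (adjusted p = 0.02), under 2-fold and not called. Between 200 and 50 µM the difference was −0.73 ± 0.18 (adjusted p = 0.02), also under 2-fold.

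The decrease of Il1r2 rests on dim spots. The gene was well above background in red on 1 of 4 arrays at 200 µM, 3 of 4 at 50 µM and 3 of 4 control arrays. Its processed red signal was 5.51, 5.58, 17.06 and 9.77 at 200 µM and 10.90, 13.78, 43.17 and 36.98 on control arrays a to d, lower at 200 µM on each slide. Green read 17.1 to 52.7 at 200 µM and 14.1 to 41.4 on control arrays. Red alone gave −1.89 ± 0.56 (adjusted p = 0.038). With normexp, another background correction, the change was −0.18 (adjusted p = 0.39). With no background subtraction it was −0.45 (adjusted p = 0.0019), so the call at 2-fold holds for the deposited correction and not for these 2. The step between the doses depends on the correction too. At 200 against 50 µM the change was 0.08 with normexp, which turns the order of the doses round. With no background subtraction that step was −0.13 (adjusted p = 0.52).

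**Figure D4:**
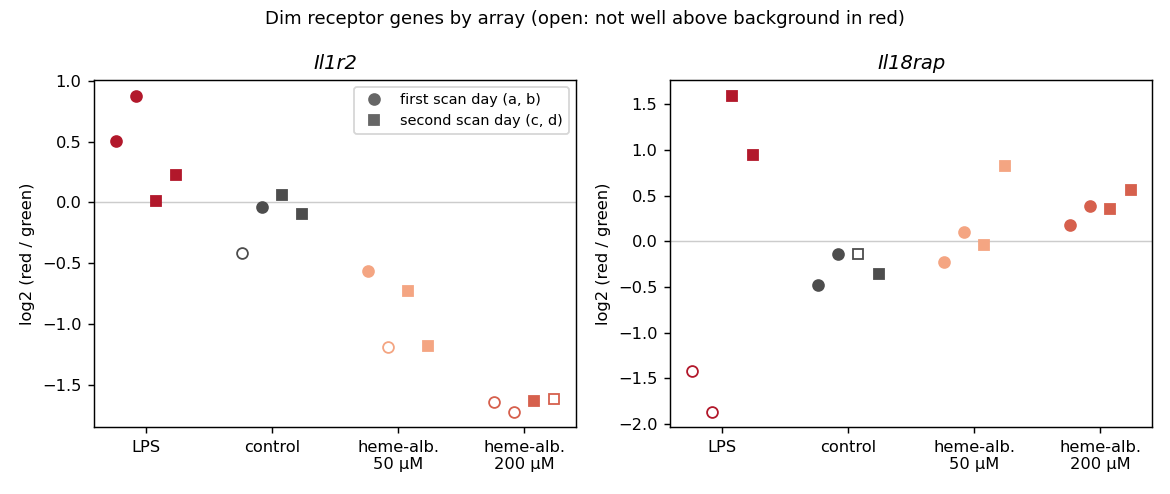
The log2 ratio of Il1r2 and Il18rap on each array is plotted by group, with circles for the first scan day, squares for the second, and open symbols where red was not well above background. In this deposited ratio Il1r2 is lower at 50 µM than in the control and lower still at 200 µM on both days. With normexp the doses did not keep that order. Il18rap after LPS is negative on the first day and positive on the second.

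Il1rap did not differ from the control beyond its error at either dose (0.01 ± 0.13 at 200 µM, 95% interval −0.27 to 0.29, and −0.01 ± 0.13 at 50 µM, 95% interval −0.29 to 0.27). At 200 µM array c read 0.50 while the other 3 lay between −0.18 and −0.10. Il18rap read 0.18, 0.39, 0.35 and 0.56 at 200 µM, all above the control arrays, which ran from −0.48 to −0.14, and −0.23, 0.10, −0.04 and 0.83 at 50 µM. The change at 200 µM was 0.65 with an error of 0.58 and an adjusted p of 0.48, in a fit that also holds the LPS arrays with their SD of 1.71. Within the scan days it was 0.59 (adjusted p = 0.097) and 0.70 (adjusted p = 0.16).

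Set directly against LPS, each dose of heme-albumin had 7 of the 9 genes called lower and 0 higher. Of all genes, 13.6 percent were called lower and 16.8 percent higher at 200 µM (30.3 percent in all), and 13.9 percent lower and 16.7 percent higher at 50 µM (30.7 percent in all). At an unadjusted p under 0.05, 8 were lower and 0 higher at each dose. Il1a, Il1f6 and Il1r2 entered the test through the LPS arrays, where they are high, so the count of 7 is given as a description, and the other 4 (Il1b, Il18, Il1rn and Il18bp) were above background on all 16 arrays. The 7 were the 6 that rose after LPS and Il1r2, whose log2 ratio differed from that after LPS by −2.05 ± 0.18 at 200 µM and −1.32 ± 0.18 at 50 µM (adjusted p = 5.5e-08 and 7e-06). Both calls of Il1r2 were lost with normexp (−0.26 at 200 µM and −0.35 at 50 µM) and with no background subtraction (−0.60 and −0.47), and in red alone the one at 50 µM was lost too (−1.28, adjusted p = 0.051). For Il1b the differences were −6.84 at both doses, and for Il1rn −4.60 at 200 µM and −4.65 at 50 µM. These comparisons share their LPS arrays with the comparison against the control. Il1rap was −0.96 at 200 µM and −0.98 at 50 µM (adjusted p = 8.7e-06 and 7e-06), just short of 2-fold. Its dimmer probe gave −1.006 at 200 µM (adjusted p = 6.4e-04), just past 2-fold, and −0.88 at 50 µM (adjusted p = 0.0018), under 2-fold. Between the doses 0 of 9 genes were called higher and 0 lower, against 0.619 and 0.196 percent of all genes (0.815 percent in all), and 1 was lower at an unadjusted p under 0.05, Il1r2.

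Ordered by group means of the log2 ratio, the 6 genes that rose had LPS on top by a wide margin, and the other 3 groups lay close together. For Il1b the means were 6.85 ± 0.18 after LPS, 0.01 ± 0.06 at 50 µM, 0.01 ± 0.23 at 200 µM and 0.11 ± 0.13 in the control (SD, n = 4 arrays each), and the last 3 overlapped. For Il1rn they were 4.40 ± 0.04 after LPS, −0.25 ± 0.19 at 50 µM, −0.20 ± 0.17 at 200 µM and −0.06 ± 0.09 in the control, again with overlap below LPS. Il1r2 had another order, with 0.41 ± 0.38 after LPS, −0.91 ± 0.32 at 50 µM, −1.65 ± 0.05 at 200 µM and −0.12 ± 0.21 in the control. LPS and control overlapped for Il1r2, and the 2 doses overlapped neither each other nor the control. Il18rap had 200 µM on top (0.37 ± 0.15), then 50 µM (0.17 ± 0.46), LPS (−0.19 ± 1.71) and the control (−0.28 ± 0.17), and only 200 µM and the control did not overlap.

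The genes whose pattern over the 16 arrays was most like that of Il1b were Slc15a3 (Pearson r = 0.999), Il1f6 (0.9987), Lipg (0.9987) and Gbp3 (0.9983). Those most like Il1rn were Il1f6 (0.9975), Gbp7 (0.9974), Gbp3 (0.9974) and Il1b (0.9971). All of these are set by the gap between 4 LPS arrays and 12 others, and arrays of 1 slide share their processing. Slc15a3 rose by 3.09 after LPS, Gbp3 by 5.95 and Gbp7 by 5.31 on the log2 scale, where Il1b rose by 6.74. At 200 µM heme-albumin Slc15a3 changed by −0.12, Gbp3 by −0.31 and Gbp7 by −0.29.

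Of 12 further family genes with a named probe, 5 passed the filter. Among the ligands, Il33 and Il1f9 (now Il36g) were above background on 4 of 4 LPS arrays and 0 of 4 control arrays. They entered the test through the LPS arrays and most of their control ratios are fixed at 0, so they had to differ and the calls are given as a description, with bounds of at least 5.51-fold for Il33 (adjusted p = 1.3e-07) and at least 10-fold for Il1f9 (adjusted p = 1.3e-06). Il1f9 was above background on 2 of 4 arrays at 200 µM, where its log2 ratio ran from 0.10 to 2.27 and the change of 1.59 ± 0.57 had an adjusted p of 0.057. Il1f8, Il1f5 and Il1f10 did not pass. Among the receptors, Il1r1, the signalling receptor of interleukin-1, rose by 1.53 ± 0.19 after LPS (adjusted p = 3.9e-06). Il1r1 was above background on 4 of 4 LPS arrays and on 3 of 4 arrays of each other group. It entered the test through the LPS arrays, where it is high, so its call is given as a description too. Il1rl1, the interleukin-33 receptor, fell by 4.73 ± 0.33 (adjusted p = 4e-09), and Sigirr, an inhibitory receptor of the family, fell by 1.88 ± 0.06 (adjusted p = 3.9e-13). The value of Il1rl1 comes from 1 of its 3 probes, and the other 2 were too dim to pass. That probe was above background on 3 of 4 LPS arrays and on 4 of 4 arrays of each other group. It entered the test through those other groups, where it is high, so the call of Il1rl1 is likewise given as a description. At either dose of heme-albumin 0 of these 5 genes were called in limma, with Il1f9 at an unadjusted p under 0.05 at 200 µM and 0 at 50 µM. Il18r1, the chain that binds interleukin-18, was not well above background on any of the 16 arrays with either of its probes.

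Transcripts for the processing and release of the cytokines moved both ways after LPS. Of 14 genes tested, 7 were called higher and 2 lower, where 14 percent of all genes were called higher and 16.7 percent lower, with a median change of 1.08 where that of all genes was −0.09. Casp4, the caspase that senses cytosolic LPS, rose by 4.64 ± 0.16 (adjusted p = 1.2e-12). Mefv, the gene of pyrin, rose by 4.56 ± 0.19, and Casp1, the caspase that cleaves interleukin-1 beta and interleukin-18, by 2.98 ± 0.10. Nlrp3, the sensor of the best known inflammasome, rose by 1.97 ± 0.11. Of the 2 lower genes, Nlrp1b, another inflammasome sensor, fell by 3.12 ± 0.07, while its dimmer probe averaged −1.12 ± 0.76 on LPS arrays and 0.18 ± 0.30 on control arrays. At 200 µM heme-albumin 2 were called higher and 0 lower, where 2.02 percent of all genes were called higher (median 0.14, that of all genes −0.02): Panx1, a membrane channel, by 1.64 ± 0.21 (adjusted p = 7.1e-05), and Mefv by 1.34 ± 0.19 (adjusted p = 1.3e-04). The value of Mefv is that of its brighter probe, and the log2 ratio of its other probe averaged 0.41 ± 0.19 at 200 µM and −0.10 ± 0.18 in the control (SD, n = 4 arrays each), a difference well under 2-fold. Casp1 (0.24 ± 0.10, adjusted p = 0.1) and Nlrp3 (0.07 ± 0.11, adjusted p = 0.7) were not called there. Panx1 was also higher at 200 than at 50 µM, by 1.04 ± 0.21 (adjusted p = 0.0076), and was not called after LPS (−0.28 ± 0.19). At 50 µM 0 of the 14 were called, and 4 were higher at an unadjusted p under 0.05.

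Among 15 adaptors and kinases of the receptor signal, 4 were called higher and 1 lower after LPS (median 0.69). That is 5 of 15 where 30.8 percent of all genes were called, a share near the background. Irak3, which restrains the pathway, rose by 2.84 ± 0.10 (adjusted p = 2.4e-12), Peli1 by 2.19 ± 0.23, and Myd88, the shared adaptor, by 1.93 ± 0.09, while Irak1 fell by 1.26 ± 0.05 with its brightest probe. Its other 2 probes averaged −0.65 and −1.07 on LPS arrays and −0.10 and −0.32 on control arrays, differences under 2-fold. For other genes, further probes changed in the same direction as the brightest one but by more. Irak2 was not called with its brightest probe (0.997), but its other probe averaged 1.98 on LPS arrays and −0.06 on control arrays. Tollip was at 0.13 with its brightest probe, while its others averaged 1.18 and 0.76 on LPS arrays and −0.005 and 0.07 on control arrays. These genes are named after their values were seen. At 200 µM heme-albumin 0 of 15 were called in limma, with 3 higher and 2 lower at an unadjusted p under 0.05, and the median change was −0.00. Ikbkg, the regulatory subunit of the IKK complex, had the largest change of the 15 at both doses (0.72 ± 0.07 at 200 µM, adjusted p = 2.3e-06, and 0.75 ± 0.07 at 50 µM, adjusted p = 1.7e-05), under 2-fold, and is named after its values were seen. Irak3 at 200 µM was at 0.38 ± 0.10 (adjusted p = 0.014), under 2-fold. At 50 µM 0 were called and 1 was higher at an unadjusted p under 0.05.

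The genes downstream, NF-kB subunits and the inhibitors that NF-kB itself induces, gave calls after both LPS and 200 µM heme-albumin, as did the genes of processing and release. After LPS 11 of 12 were called higher and 0 lower, where 14 percent of all genes were called higher, with a median of 2.86. Tnfaip3, which encodes a ubiquitin-editing enzyme that shuts NF-kB signalling down, rose by 5.81 ± 0.24 (adjusted p = 1.1e-11), Zc3h12a by 3.75 ± 0.14, Nfkbia by 3.69 ± 0.11 and Nfkbiz by 3.60 ± 0.32. At 200 µM heme-albumin 5 of 12 were called higher and 0 lower, where 2.02 percent of all genes were called higher, with a median of 0.62. The 4 with the largest change were Tnfaip3 by 1.76 ± 0.24 (adjusted p = 8.1e-05), Nfkbia by 1.36 ± 0.11 (adjusted p = 5.2e-07), Nfkbie by 1.35 ± 0.11 (adjusted p = 8.5e-07) and Zc3h12a by 1.30 ± 0.14 (adjusted p = 6.5e-06). Nfkbiz, at 0.53 ± 0.32, was not called (adjusted p = 0.27). At 50 µM 0 were called in limma, 8 were higher at an unadjusted p under 0.05 and the median was 0.45. On the same 200 µM arrays Il1b changed by −0.10 ± 0.11, Il1rn by −0.15 ± 0.10 and Il18 by −0.07 ± 0.08.

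**Figure D5:**
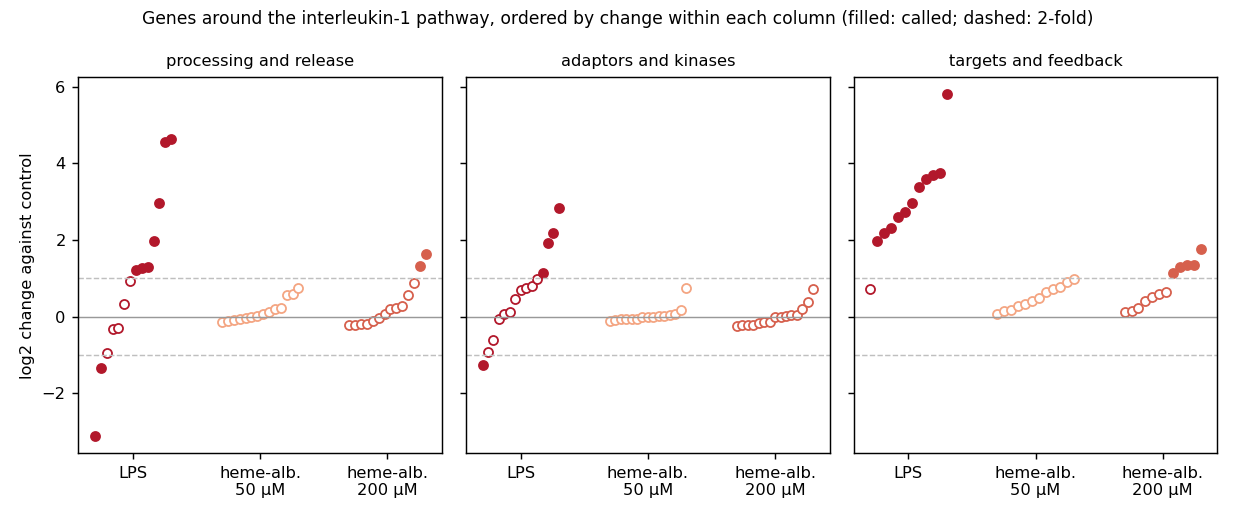
Log2 changes against the control are plotted for each tested gene of 3 lists around the pathway, ordered by size within each column, called genes filled and 2-fold dashed. In the list of targets and feedback genes 11 of 12 are called after LPS, 0 at 50 µM and 5 at 200 µM heme-albumin.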

How the data were processed

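RNA of 16 macrophage cultures was read on Agilent 2-colour arrays, the sample in Cy5 (red) and untreated RNA in Cy3 (green). The deposited LogRatio is log10 of red over green per spot, background-subtracted and dye-normalized by linear and lowess fits, and the software was Agilent Feature Extraction (version 10.7.3.1), both per the file headers. Processed and median signals are intensity values per spot, per the file headers. Per the labels, the authors normalized no further and filtered at 2-fold after an analysis of variance. The deposited value table equals the LogRatio columns (largest difference 0).

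Control spots and outlier spots (188 to 690 per array) were left out, and spots of a probe averaged. Probes were named by accession through a RefSeq table of mouse genes (27234 of 39429). A gene was tested where some group had a probe well above background in red on each of its 4 arrays, and its brightest such probe stood for it (12759 genes). Log10 ratios were turned into log2 and fitted by group means over all 16 arrays without a block (limma 3.58.1, lmFit with eBayes, under R 4.3.3, median 14.1 degrees of freedom). P-values were adjusted by Benjamini-Hochberg over all genes within each of 6 comparisons, and a call needed an adjusted p under 0.05 and 2-fold. The script was tested on simulated data. Bounds for dim genes used red signals after loess and Aquantile normalization. Files were read with the R package data.table (version 1.17.8) and figures drawn with matplotlib 3.10.9.

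The genes and lists were chosen with earlier results of these data known. All 9 genes are named, further family and pathway genes by list (up to 4 called ones with the largest change per list and comparison, plus Il1r1, Il33, Il1rl1, Casp1, Nlrp3, Irak3 and Nfkbiz), and the 4 genes most like Il1b and Il1rn by Pearson r. Alternatives were normexp with offset 50, no background subtraction, red alone, median centring, 2 other filters on dim probes, the mean of all probes, a replicate block, scan day as a block, each scan day alone, no moderation of the variance, each array left out, and, added after seeing the data, green alone.

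Replicate letter and slide are the same, each slide holding 1 array of every group, and the first scan day took a and b, the second c and d. Each group kept 1 position on every slide, so position and group cannot be told apart. Same-letter arrays deviated together from their group means with r from 0.1049 to 0.5007 in 5 comparisons and from 0.0988 to 0.1132 between LPS and control. The range for 200 µM against LPS, 0.1049 to 0.2335, overlaps that between LPS and control. These values therefore draw no line between paired and unpaired comparisons, and the errors and p-values reported come from a fit without a block.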

Additional observations from a re-analysis of the deposited data

Results flagged for a closer look

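On control arrays the log2 ratio of Il1a was −0.289 on array a and exactly 0 on the other 3, where both channels were too dim for a ratio. The array stands apart because 3 of the 4 values are fixed, and Il1a was above background on none of them.

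At 200 µM heme-albumin the log2 ratio of Il1rap was 0.501 on array c, while the other 3 arrays lay between −0.181 and −0.098. A gap of this size within a group of 4 is met by chance in about 1 of 20 groups.

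In the green channel, which held untreated RNA on every array and is outside the comparisons of the ratio, LPS arrays were above control arrays by 5.319 for Il1a, 3.524 for Il1b, 3.749 for Il1f6 and 2.435 for Il1rn on the log2 scale. The cause was not tested.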

How the results depend on the processing

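Of 1056 log2 changes of the 9 genes recomputed under alternatives, 1034 kept their direction and their side of the threshold or were uncalled throughout (68 of these changed sign without being called), 14 passed the threshold in addition, 7 no longer passed it and 1 reversed. The reversed one was Il18rap after LPS, −1.333 on the first scan day alone (adjusted p = 9.2e-04), which made 1 gene called lower there. The count of genes called lower at 200 µM against the control was 0 with normexp, with no background subtraction and with probes above background on all 16 arrays (5 genes tested). In the comparison of 200 µM with LPS, 1 gene (Il18rap) was called higher on the first scan day alone, and leaving out 1 array gave 0 to 1, the 1 being without LPS replicate c (Il18rap 1.15, adjusted p = 0.044). At 50 µM against LPS 1 gene (Il18rap) was called higher on the first scan day alone. With probes above background on all 16 arrays, which left 5 genes, 4 were called lower than LPS at 200 µM and 4 at 50 µM. The replicate block changed no call, with 6 genes called higher after LPS and Il1r2 at −1.527 at 200 µM (adjusted p = 1.6e-04). Over all genes, 382 were called at 200 µM, 151 with normexp and 229 with no background subtraction. At 50 µM 47 were called, 19 with normexp and 29 with no background subtraction. Between the doses 104 were called, and 31 with normexp. Il1a and Il1f6 were not well above background outside the LPS arrays, and Il1r2 and Il18rap were not on some arrays. The causes were not tested.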
